A study of Arabidopsis thaliana with 27 samples.

Results

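Genes annotated to the Gene Ontology term vesicle-mediated transport were followed in messenger RNA profiles of whole Arabidopsis thaliana seedlings. Expression was given in TPM, a value scaled for transcript length and to the same total in every library. The table listed 323 rows with the term, and 268 of them reached at least 1 TPM in at least 3 of the 27 libraries. Of the other 55 rows, 20 were listed at 0 TPM in every library. The same level was reached by 21396 of all 33039 genes. Just inside this limit, the third-highest library held 1.05 TPM for AT1G60970 and 1.11 TPM for SYP123, while just outside it the third-highest library held 0.93 TPM for AT3G11370 and 0.81 TPM for SARA1A. All 27 libraries held at least 1 TPM for 249 of the 268 genes.

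The 27 libraries formed 9 groups of 3, from 3 genotypes at 16, 22 and 29 °C. They came from an ELF3 T-DNA insertion line, from a line with ELF3 S364P (proline in place of a serine), and from Columbia wild type, in whose context the protocol places both mutants. ELF3, EARLY FLOWERING 3, is the scaffold on which the evening complex forms, and through this repressor the clock and warmth act on growth. Read literally, sampling was at Zeitgeber time 8 h for 16 °C, 16 h for 22 °C and 24 h for 29 °C, so temperature and time of day cannot be told apart, while genotypes at 1 temperature share both. Seedling age is not stated in the labels. Nothing in the labels says that the 3 libraries of a group came from separate plantings, so p-values measure the spread between these libraries, which may be technical. ELF3 itself averaged 32.3, 35.3 and 39.7 TPM in the insertion line over the rising temperatures, 30.7, 46.9 and 69.8 TPM in the S364P line, and 27.1, 20.4 and 40.2 TPM in wild type, so the insertion line held transcripts of the locus and its level does not check the labels.

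Cargo leaves the endoplasmic reticulum in vesicles with a COPII coat, returns from the Golgi apparatus in vesicles with a COPI coat, and moves between the Golgi, endosomes, vacuole and plasma membrane largely in clathrin-coated carriers. Small GTPases of the SAR1 and ARF families recruit the coats, RAB GTPases and tethers bring a vesicle to its target, and SNARE proteins fuse the membranes with the help of SM proteins, NSF and SNAP. In plants this traffic also delivers the enzymes and polysaccharides of the expanding cell wall, builds the cell plate and fills the vacuole.

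By their descriptions the 268 genes held 19 COPII coat genes, 14 COPI coat genes and 37 genes for membrane proteins and cargo receptors of the endoplasmic reticulum and Golgi. They also held 18 ARF GTPases and regulators, 31 clathrin and adaptor genes, 22 RAB GTPases and regulators, 17 PRA1 family genes, 17 tether genes, 45 SNAREs, 11 SM, NSF and SNAP genes, and 15 other transport genes. The remaining 22 rows were described, in whole or in their protein domain, as another kind of protein or as non-coding RNA, and 16 of these 22 lie next to another row with the term in the gene order of the TAIR10.1 RefSeq annotation. Whether strand was used in counting is not stated, so reads of overlapping neighbours cannot be told apart. Golgi occurs in the annotation of 182 of the 268 genes (67.9%, against 6.31% of all tested genes), endoplasmic reticulum in 93 (34.7%, against 6% of all) and endosome in 75 (28.0%, against 2.41% of all).

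The transport genes were expressed at moderate to high and rather even levels. Their mean over the 27 libraries had a median of 22.0 TPM and a 90th percentile of 92.8 TPM, against 12.3 TPM and 77.7 TPM for all tested genes. Genes for ARF GTPases took the highest levels: ARFA1E averaged 701 TPM, ARF1A1C 293 TPM, ARF1 182 TPM and ARFA1D 177 TPM, and the COPII GTPase SAR1B followed with 173 TPM. These GTPase genes have close paralogs, and reads shared between near-identical copies make the split of their levels uncertain. The range between the highest and the lowest of the 9 group means had a median of 0.7 on the log2(TPM + 1) scale for transport genes, against 0.82 for all tested genes, and was at least 1 for 53 transport genes (19.8%, against 37.4% of all).

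The share of all transcripts held by the 268 genes was higher at 29 °C than at 16 °C in every genotype. At 16 °C the sum took 0.875 to 0.929% of TPM in the insertion line, 0.84 to 0.854% in the S364P line and 0.853 to 0.855% in wild type. At 22 °C it took 1.07 to 1.15% in the insertion line, 0.946 to 1.04% in the S364P line and 0.925 to 1.01% in wild type. At 29 °C it took 1.35 to 1.41% in the insertion line, 1.33 to 1.39% in the S364P line and 1.12 to 1.17% in wild type. Libraries of the insertion line lay above all wild-type libraries at each temperature, whereas those of the S364P line did so at 29 °C and overlapped wild type at 16 and 22 °C. In bulk tissue, fewer cells of a type and less RNA per cell cannot be told apart. The median level of the transport genes also lay further above the median of all tested genes in the lines at 29 °C: by 1.03 ± 0.0404 log2 units in the insertion line and 0.967 ± 0.00577 in the S364P line, against 0.857 ± 0.0252 in wild type (SD, n = 3 libraries each).

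**Figure D1:**
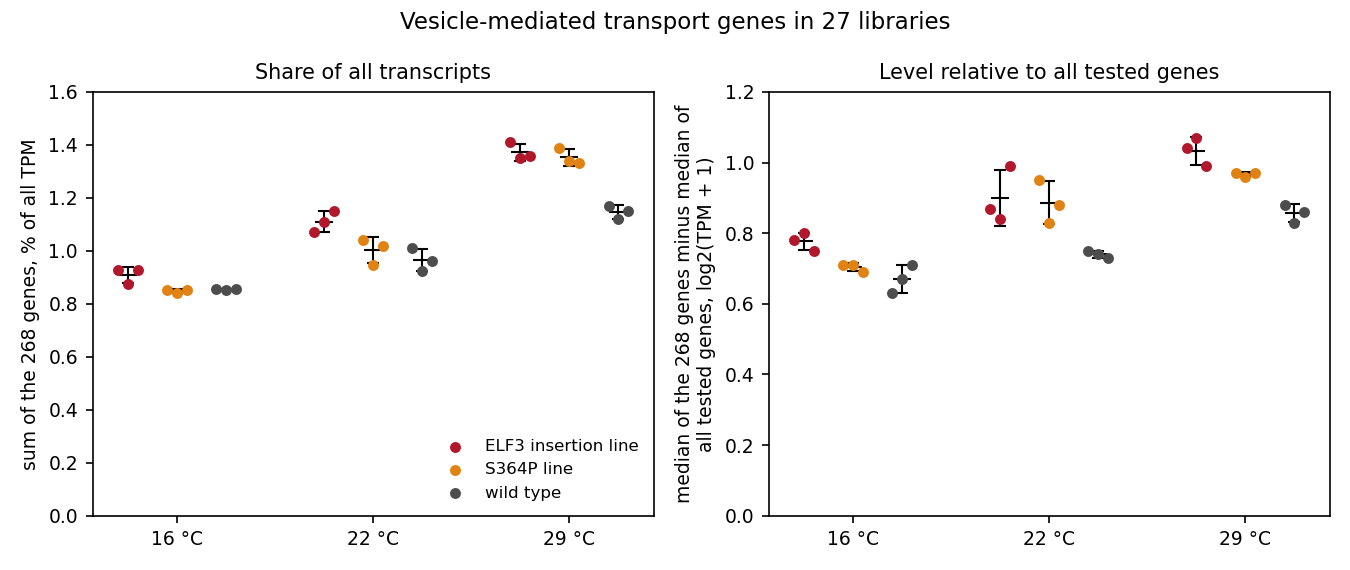
Share of all TPM held by the 268 vesicle-mediated transport genes (left, %) and the median level of these genes minus the median of all 21396 tested genes (right, log2(TPM + 1) scale) in each library, by temperature and genotype; points are libraries, bars the mean and SD of 3. At 29 °C every library of the insertion line (1.35 to 1.41%) and of the S364P line (1.33 to 1.39%) lay above the wild-type libraries (1.12 to 1.17%).

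Transport genes were tested one by one with limma on log2(TPM + 1) values, in a fit across all 21396 genes and 27 libraries, and a gene was called at a Benjamini-Hochberg adjusted p under 0.05. All log2 differences below are on this scale, with their standard error, and every adjusted p is from this test. In the insertion line against wild type, more transport genes rose at each higher temperature. At 16 °C, 61 of 268 rose (22.8%, against 15.5% of all tested genes) and 7 fell (2.61%, against 10.7%). At 22 °C, 95 rose (35.4%, against 24.6%) and 12 fell (4.48%, against 18.4%). At 29 °C, 151 rose (56.3%, against 24.8%) and 6 fell (2.24%, against 13.5%). The differences were small: over the rising temperatures their medians were 0.09, 0.13 and 0.25, against 0.03, 0.02 and 0.09 for all tested genes. At 29 °C, 230 of the 268 genes (85.8%) had a difference above 0, against 62.3% of all tested genes, and in 178 the 3 insertion-line libraries lay above all wild-type libraries (31.9% of all tested genes did so).

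In the S364P line the same comparison gave almost no call at 16 °C. There 1 gene rose (0.373%, against 0.71% of all tested genes) and 0 fell (against 0.738%), with 18 of 268 genes at an unadjusted p under 0.05. With the scaling described next it was again 1 and 0, against 0.654% and 0.612% of all genes. At 22 °C, 54 transport genes rose (against 17.3% of all tested genes, a share close to it) and 22 fell (8.21%, against 19.9%). At 29 °C, 123 rose (45.9%, against 24.5%) and 6 fell (2.24%, against 13.7%). Over the rising temperatures the medians were -0.0049, 0.04 and 0.22, against -0.01, -0.03 and 0.07 for all tested genes. At 29 °C 234 of 268 genes (87.3%) were above 0, against 58.2% of all. Without replicate 2 of the S364P line at 22 °C, 12 genes were called lower there in place of 22. Both lines are set against the same wild-type libraries, so their values are given side by side and are not independent.

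The count of rises depends on how libraries are scaled. Median-of-ratios scaling, which sets each library by the median ratio of its genes to their geometric means, moved the median of all tested genes at 29 °C to 0 in the insertion line and 0.0019 in the S364P line. With it, 94 transport genes rose and 9 fell in the insertion line at 29 °C (35.1% higher, against 15.9% of all tested genes), and 95 rose and 10 fell in the S364P line (35.4% higher, against 18.4%). The falls at 29 °C were 3.36% and 3.73% of transport genes in the insertion and S364P lines, against 18% and 17.7% of all tested genes. At 16 °C, 55 rose (20.5%, against 13.4%) and 13 fell (4.85%, against 14.1%) in the insertion line. At 22 °C, 91 rose (34.0%, against 22.8%) and 20 fell (7.46%, against 22%) in the insertion line, and 57 rose (21.3%, against 18.5%) and 27 fell (against 20.5%) in the S364P line. The median of the transport genes minus that of all tested genes at 29 °C was 0.16 as deposited and 0.15 with this scaling in the insertion line, and 0.15 and 0.14 in the S364P line.

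**Figure D2:**
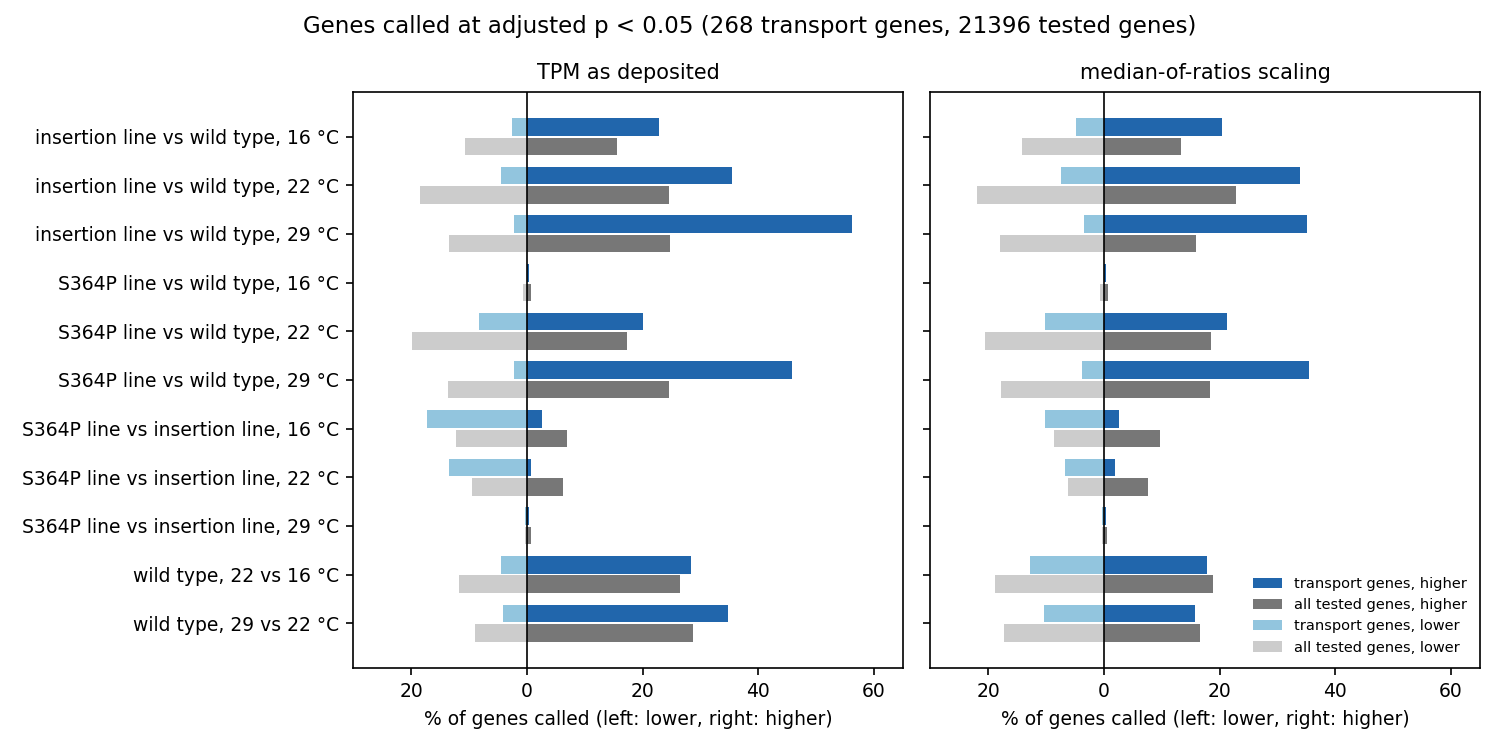
Percent of the 268 vesicle-mediated transport genes (blue) and of all 21396 tested genes (grey) called at adjusted p < 0.05, to the right where higher and to the left where lower, in each comparison, for TPM as deposited (left panel) and after median-of-ratios scaling (right panel). At 29 °C rises among transport genes exceed those among all genes in both lines under both scalings (56.3% against 24.8% in the insertion line as deposited), and in wild type from 16 to 22 °C the shares are close (28.4% against 26.5%).

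Most genes for the coats of the early secretory pathway rose in both lines in the warmest samples. At 29 °C, 16 of 19 COPII genes and 11 of 14 COPI genes rose in the insertion line, with median differences of 0.37 and 0.39, and 0 fell. The S364P line had 11 COPII and 8 COPI genes higher, with medians of 0.25 and 0.28, and 0 lower. At 22 °C, by contrast, 7 COPII genes rose and 1 fell in the insertion line, 2 rose and 1 fell in the S364P line, and 0 COPI genes were called in either line. Median-of-ratios scaling gave 13 COPII and 10 COPI genes higher in the insertion line at 29 °C, and 9 and 8 in the S364P line. The shares of all tested genes that rose at 29 °C were 24.8% and 24.5% in the insertion and S364P lines, and 15.9% and 18.4% with this scaling. At 22 °C they were 24.6% and 17.3% as deposited. Falls over all tested genes as deposited were 18.4% and 19.9% at 22 °C and 13.5% and 13.7% at 29 °C.

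At 29 °C SAR1B, the GTPase that starts the COPII coat, had 216, 205 and 208 TPM in the insertion line, 195, 181 and 174 TPM in the S364P line and 147, 139.6 and 149 TPM in wild type. The groups did not overlap, and SAR1B rose by 0.53 ± 0.053 (adjusted p = 4.46e-08) in the insertion line and by 0.34 ± 0.053 (adjusted p = 2.54e-05) in the S364P line. At 16 °C its libraries held 186, 173 and 187 TPM in the insertion line, 179, 174 and 180.2 TPM in the S364P line and 194, 194 and 185 TPM in wild type. No call was made there, with differences of -0.071 ± 0.053 in the insertion line and -0.10 ± 0.053 in the S364P line. The difference was larger at 29 than at 16 °C by 0.60 ± 0.075 (adjusted p = 4.79e-06) in the insertion line and by 0.44 ± 0.075 (adjusted p = 0.000159) in the S364P line. At 29 °C ERMO2, which encodes the cargo-binding coat protein SEC24A, had 60.8, 55.7 and 62.6 TPM in the insertion line, 62.1, 58 and 52.7 TPM in the S364P line and 51.4, 45.7 and 45 TPM in wild type. Both lines lay above wild type, by 0.33 ± 0.089 (adjusted p = 0.0053) in the insertion line and 0.28 ± 0.089 (adjusted p = 0.0172) in the S364P line. The second call ended on leaving out replicate 1 of the S364P line (0.22, adjusted p = 0.0821) or replicate 2 or 3 of wild type (0.25 and 0.24, adjusted p = 0.0581 and 0.0717).

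No COPI gene came under the rule for named genes, so the 2 with the highest level were chosen after their values were seen. At 29 °C AT5G05010, described by its clathrin adaptor medium subunit domain and placed here with the coatomer, had 143, 127 and 137 TPM in the insertion line, 137, 125 and 120.4 TPM in the S364P line and 106, 101 and 99.7 TPM in wild type. All libraries of both lines lay above the wild-type libraries, and the gene rose by 0.41 ± 0.078 (adjusted p = 0.000232) in the insertion line and 0.32 ± 0.078 (adjusted p = 0.00243) in the S364P line. AT1G30630, the coatomer epsilon subunit, had 129, 104 and 113 TPM in the insertion line, 124, 97.6 and 94.4 TPM in the S364P line and 93.4, 86.5 and 83.4 TPM in wild type. It rose in the insertion line (0.38 ± 0.1, adjusted p = 0.00454), while the difference in the S364P line was 0.25 ± 0.1 with an adjusted p of 0.0577.

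The membrane proteins of the endoplasmic reticulum and Golgi include p24 proteins, cornichon-like proteins and the receptors that retrieve resident proteins. Of 37 such genes 6 rose at 16 °C, 13 at 22 °C and 18 at 29 °C in the insertion line, and 0 fell. For the S364P line 0 were called at 16 °C, 2 rose and 6 fell at 22 °C, and 10 rose and 0 fell at 29 °C. Among all tested genes 15.5%, 24.6% and 24.8% rose in the insertion line over these temperatures, and 10.7%, 18.4% and 13.5% fell. In the S364P line 17.3% of all rose and 19.9% fell at 22 °C, and 24.5% rose at 29 °C. Falls there were thus no more frequent among the 37 genes than among all. Median-of-ratios scaling gave fewer in the warmest samples, with 8 higher and 1 lower in the insertion line and 7 higher and 0 lower in the S364P line, and gave 10 higher and 2 lower in the insertion line at 22 °C. That scaling gave 15.9% and 18.4% of all tested genes higher at 29 °C in the insertion and S364P lines, shares close to those of the 37 genes in the S364P line. It gave 22.8% higher in the insertion line at 22 °C. The 6 that fell, named after their values were seen, were ERD2, the receptor that retrieves resident proteins of the endoplasmic reticulum, the p24 genes p24delta5, p24beta2, AT1G26690 and AT1G69460. The other was AT3G17780, described as B-cell receptor-associated-like. ERD2 held 13.4, 12.2 and 12.9 TPM in the S364P line at 22 °C, against 19.6, 16 and 17.6 TPM in wild type. All S364P libraries were lower (-0.43 ± 0.069, adjusted p = 4.61e-05), and at 29 °C the difference was 0.05 ± 0.069 (adjusted p = 0.612).

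At 29 °C AT5G17190, described as a B-cell receptor-associated-like protein, a family of the endoplasmic reticulum membrane, had 58.5, 56.9 and 57.2 TPM in the insertion line, 55.7, 47.9 and 52.9 TPM in the S364P line and 34.3, 33.3 and 36.2 TPM in wild type. No library of either line overlapped wild type, and the gene rose by 0.72 ± 0.083 (adjusted p = 4.31e-07) in the insertion line and 0.58 ± 0.083 (adjusted p = 9.38e-06) in the S364P line. AT1G12390, a cornichon family protein of a kind known as cargo receptors in yeast and animals, went the other way between the 16 and 29 °C samples. At 16 °C it had 31.9, 30.9 and 30.9 TPM in the insertion line, 27.1, 27.4 and 28.4 TPM in the S364P line and 25.3, 22.3 and 24.5 TPM in wild type. At 29 °C it had 28.8, 25.5 and 23.8 TPM in the insertion line, 26.7, 29.9 and 30 TPM in the S364P line and 30.9, 29.7 and 28 TPM in wild type, and the groups overlapped. It rose in the insertion line at 16 °C (0.37 ± 0.071, adjusted p = 0.000438), was not called at 29 °C (-0.18 ± 0.071; called lower after median-of-ratios scaling, -0.29, adjusted p = 0.012), and the difference between the temperatures was -0.55 ± 0.1 (adjusted p = 0.000437).

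Chaperones that fold cargo in the endoplasmic reticulum are not in the transport term and were taken as a separate list, of which 19 of 20 were tested. Insertion-line seedlings had 0 rises and 1 fall at 16 °C, 2 rises and 1 fall at 22 °C, and 17 rises and 0 falls at 29 °C. S364P seedlings had 0 calls at 16 °C, 0 rises and 9 falls at 22 °C, and 9 rises and 0 falls at 29 °C. The median difference at 29 °C was 0.41 in the insertion line and 0.26 in the S364P line, and it was -0.28 at 22 °C in the S364P line. After median-of-ratios scaling the insertion line had 1 rise and 5 falls at 16 °C, 2 of each at 22 °C and 14 rises at 29 °C, and the S364P line had 11 falls at 22 °C and 9 rises at 29 °C. Of all tested genes 15.5%, 24.6% and 24.8% rose in the insertion line over the rising temperatures as deposited, and 10.7%, 18.4% and 13.5% fell. In the S364P line 0.71%, 17.3% and 24.5% rose and 0.738%, 19.9% and 13.7% fell. With the scaling 13.4%, 22.8% and 15.9% rose in the insertion line, and 14.1% and 22% fell at 16 and 22 °C. In the S364P line 20.5% fell at 22 °C and 18.4% rose at 29 °C with it. At 29 °C CNX1, the lectin chaperone calnexin, averaged 178 TPM in the insertion line and 155 TPM in the S364P line, against 102 TPM in wild type. The part of the chaperones in the rise of the coat genes was not tested.

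**Figure D3:**
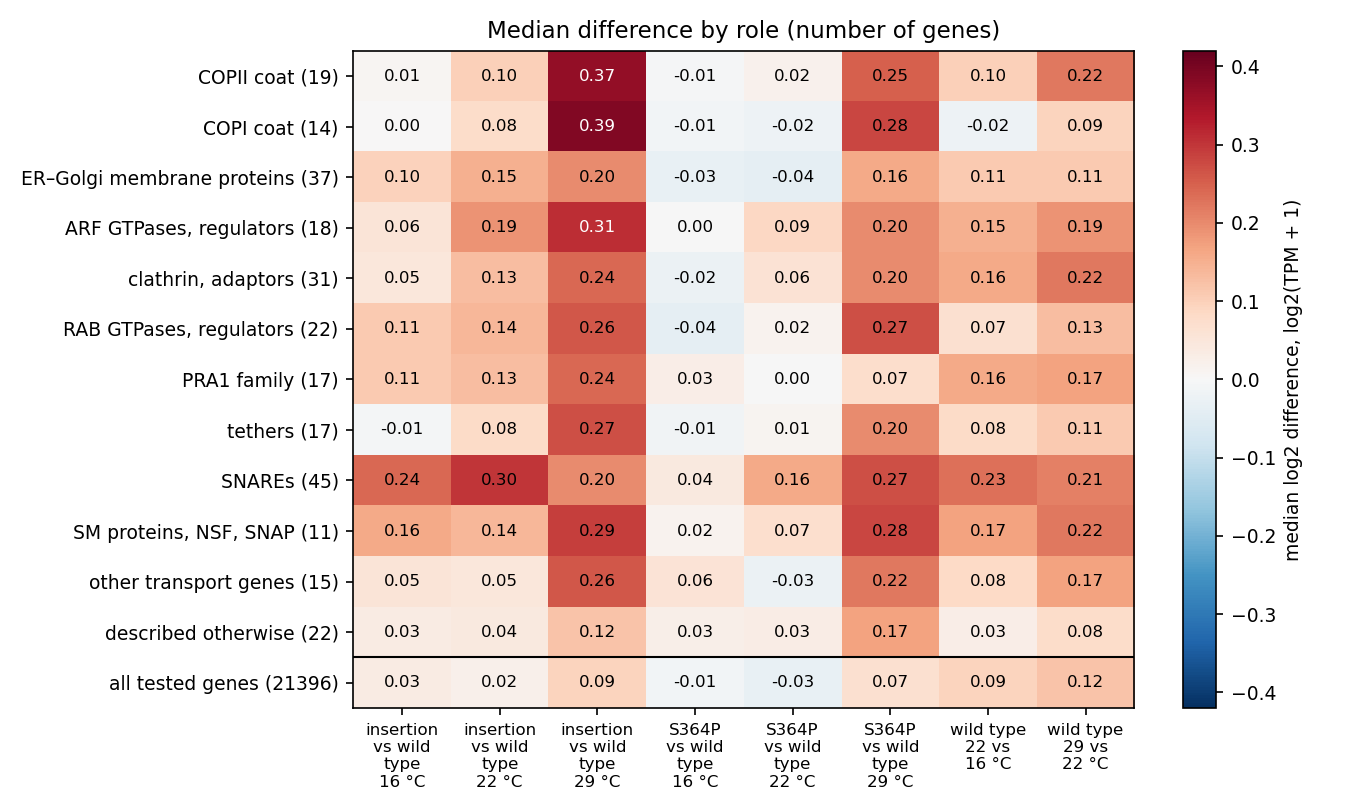
Median log2 difference, log2(TPM + 1) scale, of the transport genes of each role (rows, number of genes in brackets) and of all tested genes (last row) in the comparisons of each line with wild type and of wild type between temperatures. The COPII and COPI rows reach 0.37 and 0.39 in the insertion line at 29 °C and stay between 0.00 and 0.01 at 16 °C, whereas the SNARE row reads 0.24 at 16 °C and 0.20 at 29 °C.

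ARF GTPases and their regulators, which recruit COPI and clathrin adaptors, rose in 6 of 18 cases in the insertion line at 16 °C, 9 at 22 °C and 9 at 29 °C, with 1 fall, at 22 °C, in that line. The S364P line had 0, 5 and 8 rises, with 2 falls at 22 °C in this line. Rises took 15.5%, 24.6% and 24.8% of all tested genes in the insertion line and 0.71%, 17.3% and 24.5% in the S364P line. Falls at 22 °C took 18.4% and 19.9% of all. At 16 °C ARF1 had 165, 187 and 167 TPM in the insertion line, 140.1, 133 and 135 TPM in the S364P line and 136, 135 and 141 TPM in wild type. At 29 °C it had 261, 228 and 222 TPM in the insertion line, 247, 234 and 218 TPM in the S364P line and 168, 166 and 178 TPM in wild type. The insertion line lay above wild type at both temperatures (0.33 ± 0.061, adjusted p = 0.00025 at 16 °C; 0.46 ± 0.061, adjusted p = 2.24e-06 at 29 °C), the S364P line at 29 °C (0.44 ± 0.061, adjusted p = 4.46e-06) and not at 16 °C (-0.014 ± 0.061). At 29 °C ARFA1D had 219.8, 216 and 236 TPM in the insertion line, 226, 196 and 191 TPM in the S364P line and 161, 161 and 163 TPM in wild type. It rose there in both lines, by 0.47 ± 0.056 (adjusted p = 6.06e-07) in the insertion line and 0.33 ± 0.056 (adjusted p = 5.48e-05) in the S364P line, without overlap between the lines and wild type.

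ARFA1E, the transport gene with the highest level, rose strongly from the 16 °C to the 29 °C samples, which also differ in time of day. Its wild-type libraries held 334, 318 and 327 TPM at 16 °C, 614, 534 and 607 TPM at 22 °C and 1109, 1093 and 1138 TPM at 29 °C. The steps in wild type were 0.84 ± 0.057 (adjusted p = 3.02e-10) for 22 against 16 °C and 0.93 ± 0.057 (adjusted p = 5.83e-11) for 29 against 22 °C. At 29 °C the lines held 1033, 1113 and 1042 TPM (insertion) and 1082, 1232 and 1256 TPM (S364P), and neither was called against wild type (-0.068 ± 0.057 and 0.092 ± 0.057). The S364P line was called higher without its replicate 1 (0.16, adjusted p = 0.0284) and with quantile normalization (0.2, adjusted p = 0.0078). At 22 °C the insertion line held 734, 712 and 717 TPM, a rise of 0.30 ± 0.057 (adjusted p = 0.000148), and overlapped wild type in no library.

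Clathrin forms the outer lattice of post-Golgi vesicles, and adaptor complexes link it to cargo. Of 31 such genes, 9, 11 and 21 rose in the insertion line at 16, 22 and 29 °C with 1 fall at 16 °C, and 0, 8 and 15 rose in the S364P line with 0 falls. Scaling by median of ratios gave 10 higher at 29 °C in each line, and 7 higher and 3 lower at 16 °C in the insertion line. As deposited, rises over all tested genes were 15.5%, 24.6% and 24.8% in the insertion line and 0.71%, 17.3% and 24.5% in the S364P line. Falls were 10.7%, 18.4% and 13.5% in the insertion line and 0.738%, 19.9% and 13.7% in the S364P line. With the scaling the rises were 15.9% and 18.4% at 29 °C. At 16 °C in the insertion line 13.4% rose and 14.1% fell with it. At 29 °C the clathrin light chain gene AT2G20760 had 149, 139.8 and 148 TPM in the insertion line, 144, 134 and 128 TPM in the S364P line and 98.6, 102 and 103 TPM in wild type. All libraries of the lines lay above wild type, and the gene rose by 0.52 ± 0.052 (adjusted p = 5.04e-08) in the insertion line and 0.42 ± 0.052 (adjusted p = 1.5e-06) in the S364P line. At 22 °C its difference was 0.44 ± 0.052 in the insertion line and 0.17 ± 0.052 in the S364P line, and the second call ended without replicate 3 of the S364P line (0.14, adjusted p = 0.0714).

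At 29 °C AT4G23460, an adaptin of the large subunits of adaptor complexes, had 46.3, 38.6 and 45.8 TPM in the insertion line, 49.9, 46 and 38.3 TPM in the S364P line and 30.1, 29.8 and 28.5 TPM in wild type. It rose by 0.54 ± 0.083 (adjusted p = 1.65e-05) in the insertion line and 0.58 ± 0.083 (adjusted p = 8.34e-06) in the S364P line, again without overlap. AP19, a small adaptor subunit, rose in the insertion line at 16 °C with 49.8, 56.4 and 50.7 TPM, against 40.3, 38.7 and 39.1 TPM in wild type (0.40 ± 0.08, adjusted p = 0.000626). AT1G68110, of the ENTH/ANTH/VHS superfamily whose members bind clathrin and membrane lipids, had the largest rise of the 268 genes from 16 to 29 °C in wild type, with 4.22, 3.65 and 3.96 TPM at 16 °C, 11, 13.3 and 13.7 TPM at 22 °C and 25.9, 29.6 and 28.6 TPM at 29 °C. The steps were 1.46 ± 0.083 (adjusted p = 2.05e-11) and 1.09 ± 0.083 (adjusted p = 1.63e-09).

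RAB GTPases set the identity of the membrane to which a vesicle is sent, and single genes of this family differed widely between genotypes. Of 22 RAB GTPases and regulators, 6, 10 and 15 rose in the insertion line at 16, 22 and 29 °C with 1 fall at each, and 0, 6 and 13 rose in the S364P line with 0, 2 and 2 falls. After median-of-ratios scaling 9 rose and 1 fell in the insertion line at 29 °C, and in the S364P line 5 rose and 4 fell at 22 °C and 10 rose and 2 fell at 29 °C. All tested genes rose as deposited in 15.5%, 24.6% and 24.8% of cases in the insertion line and 0.71%, 17.3% and 24.5% in the S364P line. They fell in 10.7%, 18.4% and 13.5% of cases in the insertion line and 0.738%, 19.9% and 13.7% in the S364P line. After scaling, 15.9% and 18.4% of them rose and 18% and 17.7% fell at 29 °C. In the S364P line at 22 °C 18.5% rose and 20.5% fell after it. At 16 °C RABA1f, of a clade that acts between the trans-Golgi network and the plasma membrane, had 21, 23.8 and 20.7 TPM in the insertion line, 11.7, 11.1 and 10.9 TPM in the S364P line and 9.24, 9.91 and 10.2 TPM in wild type. At 22 °C it had 40.7, 36.9 and 45.1 TPM in the insertion line, 34.7, 27.7 and 33.3 TPM in the S364P line and 12, 13.5 and 12.6 TPM in wild type. At 29 °C it had 51.2, 45.2 and 40.1 TPM in the insertion line, 45.3, 45 and 42 TPM in the S364P line and 19.2, 19.6 and 22.7 TPM in wild type. The insertion line was above wild type at every temperature without overlap (1.08 ± 0.093, 1.61 ± 0.093 and 1.11 ± 0.093, adjusted p = 7.31e-09, 5.02e-12 and 3.11e-09). The S364P line rose at 22 °C (1.26 ± 0.093, adjusted p = 7.11e-10) and 29 °C (1.07 ± 0.093, adjusted p = 6.04e-09), and its difference at 16 °C was 0.18 ± 0.093 (adjusted p = 0.602).

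RABD2c, listed as RAB1C and of the class that acts between endoplasmic reticulum and Golgi, went down. At 16 °C it had 130.2, 133 and 129.7 TPM in the insertion line, 193, 197 and 191 TPM in the S364P line and 201, 209 and 214 TPM in wild type. At 22 °C it had 106, 112 and 118 TPM in the insertion line, 139.6, 114 and 125 TPM in the S364P line and 229, 198 and 199 TPM in wild type. The insertion line fell below wild type without overlap, with differences of -0.66 ± 0.071 and -0.89 ± 0.071 at these temperatures (adjusted p = 2e-07 and 9.96e-10). The S364P line fell at 22 °C (-0.72 ± 0.071, adjusted p = 5.74e-08), and at 16 °C its difference was -0.10 ± 0.071 (adjusted p = 0.821). At 29 °C both lines were still lower, with differences of -0.26 ± 0.071 (adjusted p = 0.00598) in the insertion line and -0.35 ± 0.071 (adjusted p = 0.000495) in the S364P line. RABB1C, a class with roles at the Golgi, rose with 215, 193 and 238 TPM in the insertion line and 204, 169.7 and 189 TPM in the S364P line at 22 °C, against 131, 113 and 128 TPM in wild type. Neither line overlapped wild type there (0.79 ± 0.073, adjusted p = 1.07e-08 in the insertion line; 0.59 ± 0.073, adjusted p = 1.45e-06 in the S364P line).

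PRA1 proteins are small membrane proteins that bind prenylated RAB GTPases. Of the 17 genes, 3, 3 and 8 rose in the insertion line at 16, 22 and 29 °C with 0 falls, and 0, 2 and 3 rose in the S364P line with 0, 2 and 0 falls. With median-of-ratios scaling 2 rose in the insertion line at 29 °C, where 8 did as deposited, and 3 rose and 1 fell at 22 °C. That scaling gave 2 rises in the S364P line at each of these temperatures, with 3 falls at 22 °C and 1 at 29 °C. As deposited, 15.5%, 24.6% and 24.8% of all tested genes rose in the insertion line and 0.71%, 17.3% and 24.5% in the S364P line. Only the insertion line at 29 °C lay well above these shares. After the scaling, PRA1 rises at 29 °C were below the shares of all tested genes in both lines (15.9% and 18.4%). Falls over all tested genes as deposited were 10.7%, 18.4% and 13.5% in the insertion line and 0.738%, 19.9% and 13.7% in the S364P line. With the scaling they were 22% in the insertion line at 22 °C, and 20.5% and 17.7% in the S364P line at 22 and 29 °C. At 16 °C PRA1.B4 had 13.7, 12.2 and 14.2 TPM in the insertion line, 11.9, 10.2 and 12.9 TPM in the S364P line and 11.7, 12.5 and 12.2 TPM in wild type, all close together. At 29 °C it had 31.1, 29.2 and 34.7 TPM in the insertion line, 28.8, 21.3 and 20.05 TPM in the S364P line and 17.9, 16.1 and 16.5 TPM in wild type. It rose in the insertion line at 29 °C (0.87 ± 0.13, adjusted p = 1.33e-05) and in the S364P line (0.44 ± 0.13, adjusted p = 0.0112; 0.0631 in a fit of these 6 libraries alone, and 0.28 with an adjusted p of 0.0917 without replicate 1 of the S364P line), and the insertion line's difference was larger at 29 than at 16 °C (0.74 ± 0.18, adjusted p = 0.00593). At 22 °C PRA1.B6 had 28.6, 28.8 and 41.4 TPM in the insertion line, 32.3, 22.8 and 26.7 TPM in the S364P line and 15.2, 14.4 and 15.1 TPM in wild type. Both lines lay above wild type there, by 1.07 ± 0.13 (adjusted p = 9.82e-07) in the insertion line and 0.81 ± 0.13 (adjusted p = 6.18e-05) in the S364P line. PRA7 scattered within groups, at 22 °C with 3, 4.74 and 6.17 TPM in the insertion line, 3.76, 0 and 1.4 TPM in the S364P line and 16.2, 7.37 and 18.6 TPM in wild type. Its call in the S364P line (-2.65 ± 0.81, adjusted p = 0.0136) ended without replicate 2 of the S364P line (-2.07, adjusted p = 0.0844) or replicate 3 of wild type (-2.41, adjusted p = 0.052).

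Tethers hold a vesicle at its target before fusion. Of 17 tether genes 1, 5 and 9 rose in the insertion line at 16, 22 and 29 °C and 2, 2 and 0 fell, while at 29 °C 10 rose and 0 fell in the S364P line. With median-of-ratios scaling 4 fell in the insertion line at 16 °C, and at 29 °C 7 rose in each line. As deposited, 15.5%, 24.6% and 24.8% of all tested genes rose in the insertion line and 10.7%, 18.4% and 13.5% fell. In the S364P line 24.5% rose and 13.7% fell at 29 °C. The scaled shares were 14.1% for the falls at 16 °C, and 15.9% and 18.4% for the rises at 29 °C. At 29 °C VPS41, a subunit of the HOPS complex that tethers membranes at the vacuole, had 52.2, 45.5 and 50.7 TPM in the insertion line, 47.1, 41.7 and 37.3 TPM in the S364P line and 39.3, 36.6 and 34.7 TPM in wild type. It rose in the insertion line without overlap (0.41 ± 0.084, adjusted p = 0.000461) and was not called in the S364P line (0.18 ± 0.084, adjusted p = 0.0985). AT2G28390, of the SAND family of MON1 and named after its values were seen, acts on the RAB switch before vacuolar fusion. It rose at 29 °C by 0.42 ± 0.062 (adjusted p = 1.15e-05) in the insertion line and 0.48 ± 0.062 (adjusted p = 1.87e-06) in the S364P line. AT5G02280, a SNARE-like protein of the TRAPP type, fell in the insertion line at 16 °C, with 17, 19.8 and 15.9 TPM, against 27.7, 28.6 and 25.8 TPM in wild type (-0.62 ± 0.12, adjusted p = 0.000508).

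In the insertion line the counts of SNAREs ran differently over the temperatures from those of the coats. Of 45 SNARE genes, 22 rose and 0 fell at 16 °C, 25 rose and 2 fell at 22 °C, and 20 rose and 2 fell at 29 °C, with median differences of 0.24, 0.30 and 0.20. In the S364P line 0 were called at 16 °C, 19 rose and 3 fell at 22 °C, and 24 rose and 0 fell at 29 °C. The medians were 0.04, 0.16 and 0.27. Median-of-ratios scaling gave 20 higher at 16 °C, 26 at 22 °C and 12 at 29 °C in the insertion line, with 4 lower at 29 °C, and 18 higher and 1 lower in the S364P line at 29 °C. Over all tested genes 15.5%, 24.6% and 24.8% rose as deposited in the insertion line and 0.71%, 17.3% and 24.5% in the S364P line. Falls as deposited took 10.7%, 18.4% and 13.5% in the insertion line and 0.738%, 19.9% and 13.7% in the S364P line. With the scaling 13.4%, 22.8% and 15.9% rose in the insertion line, and 18.4% in the S364P line at 29 °C. Falls at 29 °C then took 18% and 17.7% in the insertion and S364P lines. By the test of the difference between 29 and 16 °C, 3 SNAREs had a larger and 6 a smaller value at 29 °C in the insertion line, whereas 14 of 33 coat genes had a larger value and 1 a smaller one. The value was larger for 11.4% and smaller for 9.3% of all tested genes. In the S364P line 11 SNAREs and 9 coat genes had a larger value and 0 a smaller one, against 13.4% and 7.27% of all. With median-of-ratios scaling 8 SNAREs and 4 coat genes had a larger value in that line (against 8.74%).

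**Figure D4:**
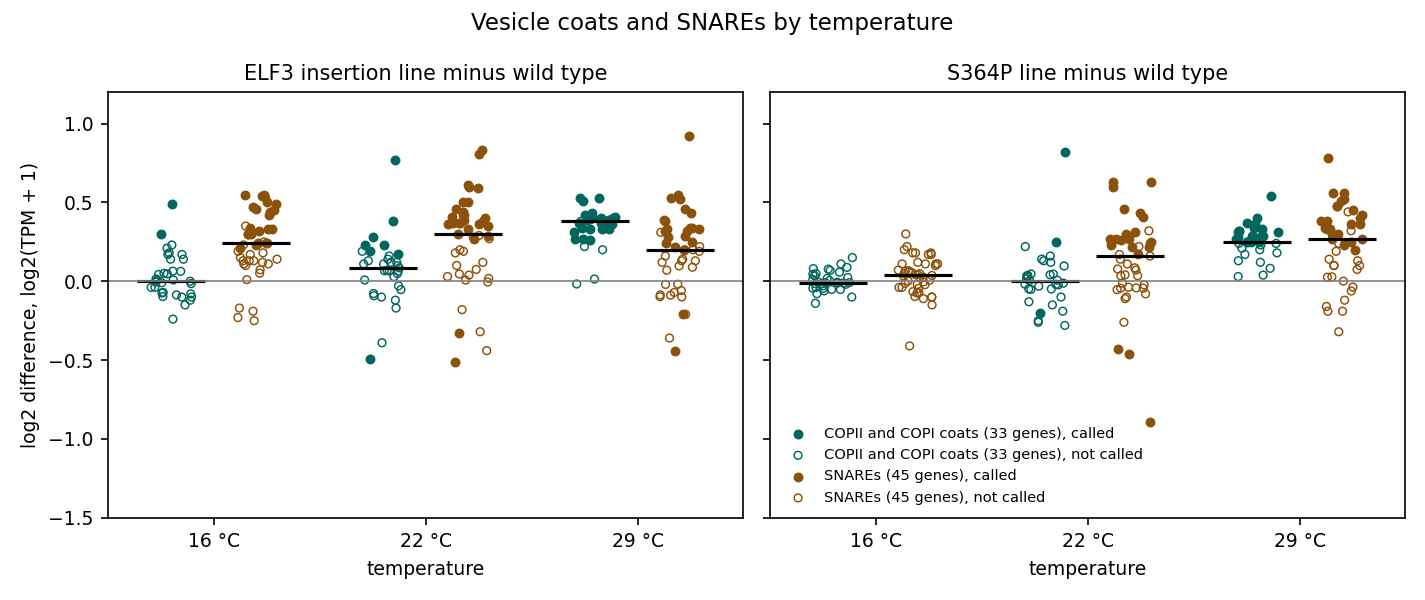
Log2 difference from wild type, log2(TPM + 1) scale, of each of 33 coat genes (COPII and COPI together) and 45 SNARE genes at 16, 22 and 29 °C, in the insertion line (left) and the S364P line (right); filled points were called, open points were not, and bars are medians. In the insertion line the coat median is 0.38 at 29 °C and near 0 at 16 °C, while the SNARE medians lie between 0.20 and 0.30 at all 3 temperatures.

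The SNAREs that rose in the insertion line at 16 °C included genes of the Golgi and the vacuole. At 16 °C VTI12, listed as VTI1B and a SNARE of the trans-Golgi network, had 45.7, 50.5 and 48.5 TPM in the insertion line, 41.1, 37.5 and 42.8 TPM in the S364P line and 38, 33.4 and 35.6 TPM in wild type. At 29 °C it had 128, 143 and 128 TPM in the insertion line, 134, 145 and 148 TPM in the S364P line and 140.0, 139.9 and 147 TPM in wild type. It rose in the insertion line at 16 °C (0.42 ± 0.065, adjusted p = 2.78e-05), the groups overlapped at 29 °C, and the difference between the temperatures was -0.52 ± 0.092 (adjusted p = 0.000263). VAMP724 followed the same pattern, with 0.30 ± 0.075 (adjusted p = 0.00394) in the insertion line at 16 °C and -0.21 ± 0.075 (adjusted p = 0.0345) at 29 °C, and a difference between the temperatures of -0.51 ± 0.11 (adjusted p = 0.00141). Its call at 29 °C ended on leaving out replicate 1 or 3 of the insertion line or any wild-type replicate (-0.21 to -0.16, adjusted p = 0.0612 to 0.146). At 22 °C MEMB11, a Golgi SNARE, had 54.6, 48.4 and 51.2 TPM in the insertion line, 44.4, 46.6 and 43.1 TPM in the S364P line and 30.5, 26.4 and 28.7 TPM in wild type. Both lines were above wild type there (0.83 ± 0.096, adjusted p = 3.29e-07 in the insertion line; 0.63 ± 0.096, adjusted p = 2.4e-05 in the S364P line), and the wild-type libraries held 13.2, 11.3 and 14.1 TPM in the coolest and 56, 52.1 and 59 TPM in the warmest samples.

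At 16 °C the R-SNARE VAMP711, of the vacuolar membrane, had 83.5, 91.4 and 81.6 TPM in the insertion line, 62.4, 59.6 and 63.7 TPM in the S364P line and 62.9, 58.3 and 60.2 TPM in wild type. The insertion line alone lay above wild type (0.49 ± 0.069, adjusted p = 9.11e-06), and the S364P line differed from it by -0.46 ± 0.069 (adjusted p = 3.48e-05). VAMP713, a close relative, was higher at 16 °C than at 22 and 29 °C in wild type. Its wild-type libraries held 25.5, 23.5 and 23.8 TPM at 16 °C, 12.7, 13.7 and 15.4 TPM at 22 °C and 12.5, 11.8 and 12.4 TPM at 29 °C. At 29 °C it held 24.8, 23.1 and 24 TPM in the insertion line and 23.6, 20.9 and 20.6 TPM in the S364P line. Both lines were well above wild type at 29 °C (0.92 ± 0.1, adjusted p = 1.77e-07 in the insertion line; 0.78 ± 0.1, adjusted p = 1.96e-06 in the S364P line). At 16 °C the insertion line alone was (0.50 ± 0.1, adjusted p = 0.000613).

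**Figure D5:**
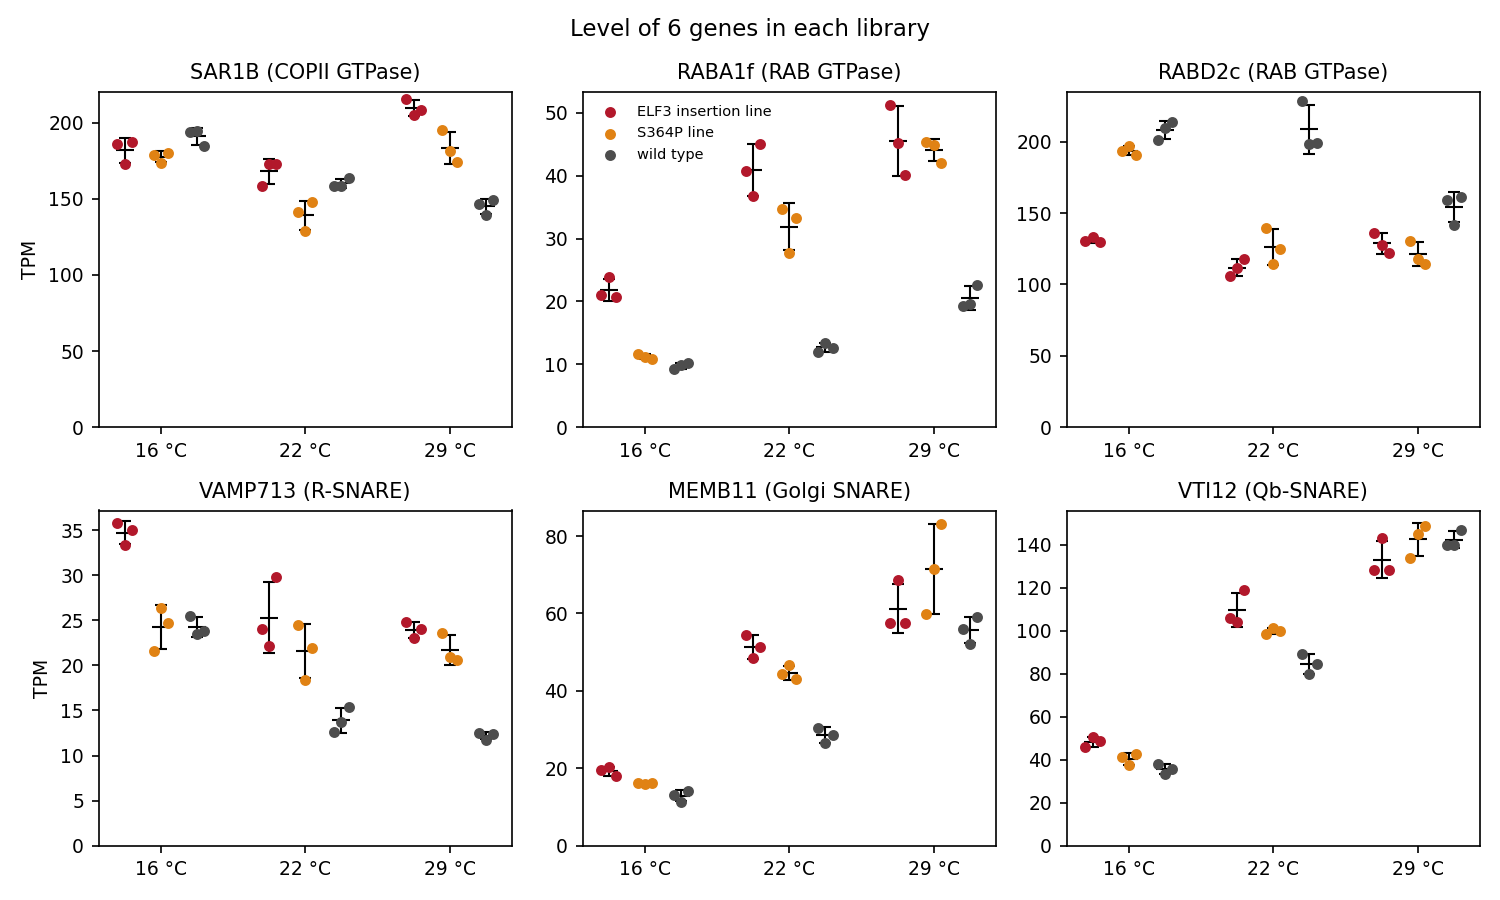
TPM in each library of SAR1B, RABA1f, RABD2c, VAMP713, MEMB11 and VTI12 by temperature and genotype; points are libraries, bars the mean and SD of 3. RABA1f at 16 °C lies at 20.7 to 23.8 TPM in the insertion line, with S364P and wild-type libraries near each other at 9.24 to 11.7 TPM, and at 22 °C both lines lie above wild type.

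Several SNAREs of the plasma membrane rose in both lines at 29 °C, as tested for SYP121, VAMP721, SNAP33 and SYP132. At 29 °C SYP121, a syntaxin of secretion, had 43, 37 and 42 TPM in the insertion line, 46.6, 38.6 and 36.7 TPM in the S364P line and 27.8, 26.4 and 29.3 TPM in wild type, with no overlap between the lines and wild type. It rose by 0.53 ± 0.11 (adjusted p = 0.000731) in the insertion line and 0.52 ± 0.11 (adjusted p = 0.000843) in the S364P line. Of its SNARE partners, VAMP721 and SNAP33 rose in both lines, while VAMP722, given below, was called in the insertion line alone. VAMP721 rose by 0.46 ± 0.064 and 0.36 ± 0.064 in the insertion and S364P lines, and SNAP33 by 0.33 ± 0.062 and 0.45 ± 0.062 (adjusted p = 5.39e-06, 0.000106, 0.000225 and 5.8e-06). SYP132, a second plasma membrane syntaxin, had 67.9, 67.1 and 66.6 TPM in the insertion line, 65.7, 68.8 and 67.3 TPM in the S364P line and 52.1, 49.4 and 52.9 TPM in wild type. All libraries of the lines lay above wild type, with differences of 0.38 ± 0.056 (adjusted p = 1.23e-05) in the insertion line and 0.38 ± 0.056 (adjusted p = 1.32e-05) in the S364P line. SYP111, the cytokinesis syntaxin KNOLLE, was lower in the insertion line at 22 °C (-0.33 ± 0.1, adjusted p = 0.013). That call ended without replicate 2 of wild type (-0.27, adjusted p = 0.0676). SYP111 was not called at 29 °C as deposited, but was called lower there in both lines with median-of-ratios scaling. The differences were -0.32 (adjusted p = 0.0135) in the insertion line and -0.26 (adjusted p = 0.04) in the S364P line. With that scaling it was also called lower in the S364P line at 22 °C (-0.25, adjusted p = 0.0467). SYP122 was lower in the S364P line at 22 °C (-0.89 ± 0.22, adjusted p = 0.00292).

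SM proteins, NSF and SNAP assemble and recycle SNARE complexes. Of 11 such genes 2, 3 and 7 rose in the insertion line at 16, 22 and 29 °C with 1 fall at 16 °C, and at 29 °C 6 rose and 0 fell in the S364P line. The rises over all tested genes were 15.5%, 24.6% and 24.8% in the insertion line, and 24.5% in the S364P line at 29 °C. Falls were 10.7% in the insertion line at 16 °C and 13.7% in the S364P line at 29 °C. At 22 °C KEU, the SM protein KEULE that works with the cell-plate syntaxin, had 45.8, 48.3 and 47.4 TPM in the insertion line, 51.5, 42.1 and 44.8 TPM in the S364P line and 37.5, 30.6 and 33.4 TPM in wild type. Neither line overlapped wild type (0.47 ± 0.073, adjusted p = 1.56e-05 in the insertion line; 0.44 ± 0.073, adjusted p = 7.13e-05 in the S364P line). At 29 °C ATSLY1, an SM protein of the endoplasmic reticulum and Golgi, had 46.1, 42.9 and 46.6 TPM in the insertion line, 44, 36.9 and 38.2 TPM in the S364P line and 32.3, 31.7 and 34.4 TPM in wild type. It rose by 0.45 ± 0.089 (adjusted p = 0.000335) in the insertion line and 0.26 ± 0.089 (adjusted p = 0.0227) in the S364P line. The S364P call ended without replicate 1 of the S364P line (0.19, adjusted p = 0.124) or replicate 1 or 2 of wild type (0.25 and 0.24, adjusted p = 0.06 and 0.0717).

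The other core genes, among them the ARF exchange factors, clathrin heavy chains and vacuolar SNAREs, had differences of -0.23 to 0.56 at 29 °C in either line, and 0 of these genes were called lower there. VAMP727, a SNARE of the vacuolar and late endosomal membrane, rose in both lines (0.34 ± 0.081, adjusted p = 0.002 in the insertion line; 0.36 ± 0.081, adjusted p = 0.00134 in the S364P line), as did the SM gene ATVPS33 (0.39 ± 0.076, adjusted p = 0.000246; 0.29 ± 0.076, adjusted p = 0.00417). VTI11, listed as SGR4, rose in both lines as well (0.24 ± 0.063, adjusted p = 0.00399; 0.27 ± 0.063, adjusted p = 0.0019), and the insertion-line call ended with median-of-ratios scaling (0.13, adjusted p = 0.0804). VAM3, a vacuolar syntaxin, rose too (0.33 ± 0.087, adjusted p = 0.00476; 0.27 ± 0.087, adjusted p = 0.0187), but neither call was made with that scaling (0.22, adjusted p = 0.059; 0.19, adjusted p = 0.089). The S364P call also ended without replicate 1 of that line or replicate 2 of wild type (0.22 and 0.21, adjusted p = 0.0784 and 0.0956). SYP41, a syntaxin of the trans-Golgi network, rose in the S364P line (0.56 ± 0.13, adjusted p = 0.00165) and was not called in the insertion line (0.31 ± 0.13, adjusted p = 0.069).

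GNL1, an exchange factor for ARF, rose in the insertion line at 29 °C (0.35 ± 0.087, adjusted p = 0.00275), and its S364P call (0.22 ± 0.087, adjusted p = 0.0476) ended without any 1 of 5 of the 6 libraries compared (adjusted p = 0.0788 to 0.269) and with median-of-ratios scaling (0.15, adjusted p = 0.111). GN, its relative GNOM, was not called at 29 °C (0.091 ± 0.21 in the insertion line; -0.23 ± 0.21 in the S364P line). AT2G33120, the R-SNARE VAMP722 and listed as SAR1, rose in the insertion line (0.29 ± 0.077, adjusted p = 0.00415) and not in the S364P line (0.14 ± 0.077). Calls in the insertion line for AT3G63460, ATMIN7, AT3G08530, AT5G46630 and VPS45 at 29 °C each ended on leaving out at least 1 library, with adjusted p of 0.0502 to 0.136. AT3G11130, VPS11 and MEMB12 were not called in either line at 29 °C.

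Set against the insertion line, the S364P line had lower transport genes at the cooler temperatures. At 16 °C, 46 of 268 were lower (17.2%, against 12.2% of all tested genes) and 7 higher (2.61%, against 7%). At 22 °C, 36 were lower (13.4%, against 9.45%) and 2 higher (0.746%, against 6.18%), and at 29 °C 1 was higher (0.373%, against 0.659%) and 1 lower (0.373%, against 0.341%). Median-of-ratios scaling gave 27 lower (against 8.61% of all) and 7 higher (against 9.77%) at 16 °C, 18 lower (against 6.18%) and 5 higher (against 7.67%) at 22 °C, and at 29 °C again 1 each way (against 0.313% lower and 0.561% higher). SNAREs made up 14 of the 46 at 16 °C, with 0 higher, and 10 SNAREs were lower with that scaling. Leaving out replicate 2 of the S364P line left 30 lower at 16 °C and 20 at 22 °C. At 29 °C, leaving out replicate 1 of the S364P line gave 5 higher and 10 lower.

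In wild type the share of transport genes that rose between temperatures, and so between times of day, was near that of all genes, and fewer fell. From 16 to 22 °C, 76 rose (28.4%, against 26.5% of all tested genes) and 12 fell (4.48%, against 11.7%). From 22 to 29 °C, 93 rose (34.7%, against 28.8%) and 11 fell (4.1%, against 9.05%). The median of all tested genes moved by 0.09 and 0.12 in these steps, and the median of the transport genes by 0.12 and 0.16. With median-of-ratios scaling 48 rose (17.9%, against 18.8%) and 34 fell (12.7%, against 18.8%) from 16 to 22 °C, and 42 rose (15.7%, against 16.6%) and 28 fell (10.4%, against 17.2%) from 22 to 29 °C, so the balance of rises and falls depends on the scaling here. Without replicate 2 of wild type at 22 °C, 7 fell from 16 to 22 °C, and without replicate 1 or 3 at 22 °C, 7 and 6 fell from 22 to 29 °C. Of 45 SNAREs 23 rose from 16 to 22 °C and 20 from 22 to 29 °C, and 14 and 13 with median-of-ratios scaling.

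Whether the genotype difference itself changed between 16 and 29 °C was tested directly. In the insertion line 50 transport genes had a larger value at 29 °C (18.7%, against 11.4% of all tested genes) and 12 a smaller one (4.48%, against 9.3%). In the S364P line 59 had a larger value (22%, against 13.4%) and 5 a smaller one (1.87%, against 7.27%). Median-of-ratios scaling gave 42 larger (15.7%, against 9.28%) and 15 smaller (5.6%, against 11.5%) in the insertion line, and 35 larger (13.1%, against 8.74%) and 6 smaller (2.24%, against 9.42%) in the S364P line. Without 1 of the insertion line's libraries at 16 °C, in the column numbered 2, 33 were larger and 7 smaller. By role, 7 of 19 COPII, 7 of 14 COPI, 7 of 31 clathrin and adaptor, 7 of 22 RAB and 7 of 17 tether genes had a larger value in the insertion line, and with that scaling 5 RAB and 4 tether genes did. In the S364P line 4 COPII, 5 COPI, 8 clathrin and adaptor, 8 RAB, 4 tether and 11 of 45 SNARE genes had a larger value. That scaling gave 2, 2, 4, 5, 4 and 8.

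The 22 rows described otherwise held some of the largest differences and are kept apart for that reason. At 29 °C WRKY26, a transcription factor gene that is the neighbour of PRA1.B6, had 35, 28.7 and 27.6 TPM in the insertion line, 29.2, 34.3 and 28.8 TPM in the S364P line and 13.3, 13.9 and 13.7 TPM in wild type. Neither line overlapped wild type. The rises were 1.1 ± 0.13 (adjusted p = 4.49e-07) in the insertion line and 1.12 ± 0.13 (adjusted p = 4.01e-07) in the S364P line. bZIP58, another transcription factor gene, fell at 22 °C, with 1.45, 0.86 and 1.53 TPM in the insertion line and 2.9, 1.96 and 4.15 TPM in the S364P line, against 7, 6.51 and 7.51 TPM in wild type (-1.82 ± 0.16, adjusted p = 5.42e-09 and -1.03 ± 0.16, adjusted p = 3.21e-05). AT4G36100, described as an SM superfamily protein but with a domain of unknown function, was the 1 gene called in the S364P line at 16 °C and was named after its values were seen. It held 2.47, 2.05 and 2.25 TPM in the S364P line, against 0.16, 0.2 and 0.05 TPM in wild type (1.52 ± 0.11, adjusted p = 3.13e-09), and was above both other genotypes at all 3 temperatures. These S364P libraries alone met the limit of 1 TPM in 3 libraries, while wild type lay under it. The gene may thus have been tested only because it was high in this line, so its p-value is no support. Of the 6 falls in each line at 29 °C, 3 and 4 were among these 22 rows in the insertion and S364P lines.

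Other genes of membrane traffic that do not carry the term, 44 from a list that includes RAB, ESCRT, vacuolar sorting, exocyst and retromer genes, gave 17, 26 and 34 rises and 0, 1 and 0 falls in the insertion line at 16, 22 and 29 °C, and 0, 13 and 34 rises with 0 falls in the S364P line. With median-of-ratios scaling 11, 25 and 26 rose and 1, 1 and 2 fell in the insertion line, and in the S364P line 16 rose and 0 fell at 22 °C and 24 rose and 1 fell at 29 °C. As deposited, 15.5%, 24.6% and 24.8% of all tested genes rose in the insertion line over these temperatures, and 0.71%, 17.3% and 24.5% in the S364P line. Marker genes of other tissues moved too. The summed TPM of 16 shoot and photosynthesis markers at 29 °C was 30700 to 34500 in the insertion line and 31200 to 35300 in the S364P line, against 53600 to 57100 in wild type. Of the 16, 13 were lower in each line (against 13.5% and 13.7% of all tested genes), and 2 and 3 were higher in the insertion and S364P lines. The sum over libraries at 16 °C lay at 96700 to 102000 in the insertion line, 98400 to 103000 in the S364P line and 91700 to 94500 in wild type. There 5 markers were higher and 6 lower in the insertion line, and 5 were higher and 0 lower in the S364P line. At 22 °C the sum was 67400 to 75200 in the insertion line, 80800 to 89300 in the S364P line and 77800 to 87500 in wild type. In the insertion and S364P lines 10 and 7 of the markers were lower (against 18.4% and 19.9% of all tested genes) and 3 and 4 higher. The summed TPM of 25 root markers at 29 °C was 197 to 256 in the insertion line and 114 to 210 in the S364P line, against 203 to 330 in wild type. There 2 and 6 of the 25 were called lower in the insertion and S364P lines, and 0 higher in either. Falls over all tested genes were 13.5% and 13.7%. With median-of-ratios scaling 3 and 11 were lower (against 18% and 17.7%), again with 0 higher. At 22 °C this root sum was lower in both lines than in any wild-type library, at 153 to 205 in the insertion line and 118 to 178 in the S364P line, against 226 to 504 in wild type. In the insertion and S364P lines 4 and 8 of the 25 were called lower (against 18.4% and 19.9% of all tested genes) and 1 and 0 higher. Of 12 flower markers 1 passed the level, and their sum was 1.2 to 17.8 TPM over all libraries. The part of these markers in the counts of transport genes was not tested.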

How the data were processed

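RNA of whole seedlings was sequenced on an Illumina platform, per the labels' protocols. The values used are TPM per gene and library as deposited by the authors, per the file headers, beside a deposited gene length that was not used in any test. The deposited group means differed from the mean of the libraries by at most 3e-05 TPM. The aligner, the quantifier, the annotation version and the use of strand were not stated there. TPM keeps no sequencing depth, so no counting interval or detection limit is given. Libraries held 23430 to 23854 genes above 0, and their correlation over all tested genes was 0.973 to 0.987 within groups (27 pairs) and 0.859 to 0.983 between groups (324 pairs).

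Genes reaching 1 TPM in 3 or more of 27 libraries were tested with limma 3.58.1 in R 4.3.3 (moderated test with an intensity trend, 18 residual degrees of freedom) on log2(TPM + 1), with 9 group means, 13 comparisons and Benjamini-Hochberg adjustment over all 21396 tested genes. The fit and its counts were tested on simulated data. Tables and plots used Python 3.11.15, pandas 2.3.3, NumPy 2.4.6 and matplotlib 3.10.9. At 16 °C, 2 columns of the insertion line could not be tied to a replicate number, because titles and descriptions number these libraries differently. All 33039 genes of the table were read, and 32547 matched a RefSeq TAIR10.1 entry, as did all 268 transport genes.

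The transport genes and the gene lists were chosen with earlier results of these data known. Genes named were drawn from a core list of 28, up to 5 rises and 5 falls per comparison (3 each for differences between temperatures) with a mean of 5 TPM or more and, except for the last, no overlap of libraries, and the 5 with the highest level; others are said to be chosen after their values were seen. Alternatives were quantile normalization, median-of-ratios scaling, a pseudocount of 0.1 or 5, keeping every gene, keeping those that reach 5 TPM, a fit of the groups compared alone, a replicate block and leaving out each library; counts without the 22 rows described otherwise were added after seeing the data.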

Additional observations from a re-analysis of the deposited data

Results flagged for a closer look

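The difference between each line and wild type was itself tested between 29 and 16 °C with limma's interaction term. It differed for 50 transport genes upward (against 11.4% of all tested genes) and 12 downward (against 9.3%) in the insertion line. In the S364P line it differed for 59 upward (against 13.4%) and 5 downward (against 7.27%). In the insertion line the named changes of the difference were PRA1.B4 with 0.74, AT4G11380, an adaptin gene, with 0.63 and AT5G02280, of the TRAPP type, with 0.62 upward. Downward they were AT1G56320 with -0.99, AT5G09315 with -0.77 and the cornichon gene AT1G12390 with -0.55 on the log2(TPM + 1) scale. The call of AT5G02280 ended with median-of-ratios scaling (0.55, adjusted p = 0.0536) and that of AT4G11380 with the replicate block (0.45, adjusted p = 0.0933). AT4G11380 held 39.3, 35.7 and 41.3 TPM in the insertion line at 29 °C, against 30.1, 27.6 and 28.5 TPM in wild type, and 29.9, 20.9 and 27.2 TPM in the insertion line at 16 °C, against 29.6, 30.4 and 29.9 TPM in wild type.

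In the S364P line the named changes were RABA1f with 0.89, WRKY26 with 0.82 and VAMP713 with 0.78 upward, and bZIP58 with -1.15, AT1G56320 with -0.99 and GSTF11 with -0.71 downward. RABA1f and VAMP713 have a traffic role, whereas WRKY26, bZIP58, AT1G56320 and GSTF11 are among the rows described otherwise. AT1G56320 scattered in wild type at 29 °C, with a mean of 10.3 ± 2.61 TPM (SD, n = 3). Its insertion-line call ended on leaving out 1 of 6 libraries in turn, with values of -0.98 to -0.82 and adjusted p of 0.0506 to 0.0838. These were replicates 1 and 3 of wild type at 16 °C, replicate 1 of wild type and of the insertion line at 29 °C, and the insertion-line columns numbered 2 and 3 at 16 °C. It also ended with the replicate block (-0.61, adjusted p = 0.378). The S364P call ended without replicate 1 or 2 of the S364P line at 16 °C, replicate 3 of that line at 29 °C, or replicate 1 of wild type at either temperature (-0.98 to -0.82, adjusted p = 0.0503 to 0.0806).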

How the results depend on the processing

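Rises at 29 °C outnumbered falls in both lines under every alternative run. Leaving out single libraries gave 114 to 145 rises in the insertion line at 29 °C, 89 to 127 in the S364P line, 45 to 59 and 81 to 100 in the insertion line at 16 and 22 °C, and 38 to 58 in the S364P line at 22 °C. Single-library ranges were wider elsewhere. Falls at 22 °C ran from 7 to 15 in the insertion line and 12 to 23 in the S364P line. There were 1 to 2 rises and 0 to 1 falls in the S364P line at 16 °C, and a median excess over all genes of 0.12 to 0.16 in the S364P line at 29 °C. For the S364P line against the insertion line they were 4 to 8 higher and 30 to 41 lower genes at 16 °C, 20 to 40 lower genes at 22 °C, and, in the 29 °C samples, 1 to 5 higher and 0 to 10 lower genes. In wild type, 7 to 12 fell from 16 to 22 °C and 6 to 10 from 22 to 29 °C, with a median excess of 0.02 to 0.061 in the second step. Differences between 29 and 16 °C in the insertion line ran from 33 to 60 upward and 7 to 12 downward.

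Median-of-ratios scaling and quantile normalization gave 13 and 13 falls in the insertion line at 16 °C (7 as deposited), against 14.1% and 14% of all tested genes. The first scaling gave 20 falls at 22 °C (against 22% of all) and 94 rises at 29 °C (against 15.9%) in this line. The second gave 10 falls at 29 °C there (against 16.9%). Both gave 10 falls in the S364P line at 29 °C (against 17.7% and 17.4%). For S364P against insertion, median-of-ratios scaling gave 27 lower genes at 16 °C (against 8.61% of all). At 22 °C it gave 5 higher (against 7.67%) and 18 lower ones (against 6.18%). Quantile normalization gave 4 higher (against 8.44%) and 19 lower (against 5.97%) at 22 °C and 3 lower at 29 °C (against 0.463%). In wild type median-of-ratios scaling and quantile normalization gave 48 and 46 rises and 34 and 34 falls from 16 to 22 °C, and 42 and 44 rises and 28 and 26 falls in the next step. Over all tested genes 18.8% and 18.3% rose in the first step and 16.6% and 17.1% in the second. Transport genes thus rose no more often than all genes. The falls over all were 18.8% and 18.5%, then 17.2% and 17%. Median-of-ratios scaling gave 35 upward temperature differences in the S364P line (against 8.74% of all tested genes). The direction of ARF1A1C in wild type from 22 to 29 °C turned from 0.012 as deposited to -0.13 (adjusted p = 0.0398) with median-of-ratios scaling; the cause was not tested. With this scaling 23 results of named genes lost their call, 11 gained one and 497 stayed on the same side of the threshold. Over the fits without 1 library, 168 values lost their call, 46 gained one and 3440 did neither.

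For S364P against insertion, a fit of the 2 groups alone gave 4 higher and 29 lower genes in the 16 °C samples. It gave 1 higher and 9 lower genes in those of 22 °C and 0 lower in those of 29 °C. The shares of all tested genes called in these fits are not given, so the counts are not read as a result about transport genes. Without the filter, the median excess over all genes was 0.21 (0.16 with it) in the insertion line and 0.2 (0.15) in the S364P line at 29 °C, -0.087 (-0.062) for S364P against insertion at 16 °C, 0.083 (0.028) and 0.11 (0.048) in the wild-type steps and 0.17 (0.13) for the S364P line between temperatures. A pseudocount of 5 and quantile normalization gave 0.13 and 0.13 in the S364P line at 29 °C. The filter at 5 TPM left 0 rises in the S364P line at 16 °C and 0 higher against insertion at 29 °C. Its shares over all tested genes are not given either. Among the 246 genes with a traffic role alone there were 7 falls at 22 °C and 3 at 29 °C in the insertion line. Falls over all tested genes were 18.4% and 13.5%. In the S364P line they gave 0 rises at 16 °C (against 0.71%), 2 falls at 29 °C (against 13.7%) and 1 downward temperature difference (against 7.27%). Against insertion these genes gave 4 higher in the 16 °C samples (against 7%) and 0 higher in those of 22 °C (against 6.18%). In those of 29 °C they gave 0 either way, against 0.659% higher and 0.341% lower.

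Same-numbered libraries of different genotypes at one temperature did not deviate together as a set (r -0.234 to 0.263 in 23 pairs, 3 of them over 0.1). Libraries with different numbers gave a similar range (r -0.301 to 0.273 in 46 pairs, 7 of them over 0.1). Deviations from a mean of 3 libraries are tied to each other, so this check cannot decide whether same-numbered libraries shared a planting or batch. With a replicate block, which leaves 1 insertion-line library at 16 °C, assumed to vary like the other groups, 21 rose and 4 fell in the insertion line at 16 °C (7.24% and 5.87% of all tested genes did), S364P against insertion had 3 higher and 9 lower genes there, and 24 upward and 5 downward temperature differences were called in the insertion line. Of all tested genes, 3.89% were higher and 4.76% lower with the block in S364P against insertion at 16 °C. Upward and downward temperature differences in the insertion line took 5.86% and 6.12% of them. Transport-gene rises in the insertion line at 16 °C were thus close to the share of all tested genes. Genes lower in S364P than in insertion there were not above it, while upward temperature differences were. A group of 1 library cannot decide whether the excesses seen as deposited hold. The block gave 155 rises in the insertion line (against 25.9% of all tested genes) and 132 in the S364P line (against 25.5%) at 29 °C. The depth behind these TPM values is unknown, and 19 of the 268 genes were under 1 TPM in at least 1 library.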

Other observations

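Genes of autophagy, the pathway that delivers cytoplasm to the vacuole in double membranes, were taken as a list of 22 tested genes beside the transport term. In the insertion line 12 rose and 0 fell at 16 °C, 15 rose and 0 fell at 22 °C, and 12 rose and 1 fell at 29 °C, with median log2 differences of 0.28, 0.41 and 0.31. The S364P line had 0 calls at 16 °C, 8 rises and 0 falls at 22 °C, and 15 rises and 0 falls in the 29 °C samples. Of all tested genes 15.5%, 24.6% and 24.8% rose in the insertion line over the rising temperatures, and 0.71%, 17.3% and 24.5% in the S364P line. Median-of-ratios scaling gave 11, 15 and 9 rises in the insertion line, with 0, 0 and 1 falls, and 8 rises with 1 fall at 22 °C and 9 rises in the 29 °C samples in the S364P line. At 22 °C ATG8F, a ubiquitin-like protein of the forming membrane, averaged 245 TPM in the insertion line and 208 TPM in the S364P line, against 166 TPM in wild type. ATI1, which binds ATG8 proteins, averaged 87.3 TPM in the insertion line and 70.8 TPM in the S364P line there, against 49.8 TPM in wild type. These genes were picked as examples after their values were seen.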
